A study of Homo sapiens with 48 samples.

Results

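RNA loss after transcription was stopped was compared between CNOT4-AID cells and parental cells of DLD-1, a human colorectal cancer line. The 16 libraries concerned, of 48 in the series, were taken by cell line and treatment from the labels. In CNOT4-AID cells the CNOT4 gene carries an auxin-inducible degron at its own locus, and parental cells are untagged. Both lines express TIR1, the plant receptor through which auxin sends degron-tagged proteins to the proteasome. Both lines received 1 mM auxin for 2 h and then 1 µM triptolide, a blocker of transcription initiation, for 0, 3, 6 or 12 h. Each line had 2 libraries at each time, so 8 libraries of CNOT4-AID cells were set against 8 of parental cells. Every library of this time course had auxin, and no triptolide libraries without auxin were analysed here, so the loss of CNOT4 and any standing difference between the lines cannot be told apart. The number of clones behind the CNOT4-AID line and whether replicates came from separate cultures are not given in the sources used here, so p-values measure the spread between libraries, which may be technical.

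CCR4-NOT is the main complex that shortens the poly(A) tails of cytoplasmic mRNAs, a step that usually precedes decapping and destruction of the message. CNOT4 is a RING-type ubiquitin ligase that associates with this complex, and its yeast counterpart Not4 acts in protein quality control and in sensing of slow ribosomes. When synthesis is blocked, the level of an RNA falls at the rate at which it is degraded, so the slope of its log2 level over time measures its stability.

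Total counts ran from 18216427 to 24987059 per library. The CNOT4 mRNA had 47.0 and 52.5 CPM (counts scaled to library size, here with TMM, the trimmed mean of M values) at 0 h in CNOT4-AID cells, against 24.4 and 33.7 CPM in parental cells. The degron acts on the protein, so this level does not check whether CNOT4 protein was removed. Colon epithelium was marked by 13 of its 15 genes at a mean of 1 CPM or more in each line, with a summed level of 7511 to 8934 CPM in CNOT4-AID libraries and 7230 to 9336 CPM in parental libraries. None of 8 fibroblast markers and none of 7 blood markers reached that mean in either line, and COL1A2 and HBB had no counts. Of 4 endothelium markers VWF passed it, and their summed level was 2.05 to 3.05 CPM in CNOT4-AID libraries and 4.44 to 7.22 CPM in parental libraries, without overlap. Its part in the results was not tested. Of 4 neural markers, MAP2 and TUBB3 passed it, with a summed level of 108.8 to 118.8 CPM in CNOT4-AID libraries and 141.7 to 190.5 CPM in parental libraries. The pair of parental libraries at 0 h agreed least, with a standard deviation of the log2 difference between replicates of 0.745, against at most 0.507 in the other 7 pairs.

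Endogenous RNA fell further relative to the spike-in in CNOT4-AID cells than in parental cells. The ERCC spike-in is a set of synthetic RNAs added in a fixed amount to a fixed mass of total RNA, so the ratio of endogenous to ERCC counts follows the share of non-ribosomal RNA in total RNA. The log2 of this ratio in CNOT4-AID cells was 6.39 and 6.32 at 0 h, 5.90 and 6.02 at 3 h, 5.85 and 5.89 at 6 h, and 5.44 and 4.61 at 12 h. In parental cells it was 6.15 and 5.86 at 0 h, 6.03 and 5.92 at 3 h, 5.74 and 6.41 at 6 h, and 5.74 and 5.53 at 12 h. Both CNOT4-AID libraries lay above both parental libraries at 0 h and below both at 12 h, while the lines overlapped at 3 and 6 h.

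The least-squares slope of this log2 ratio was -0.107 ± 0.0205 per hour in CNOT4-AID cells and -0.0300 ± 0.0205 per hour in parental cells (SE, 8 libraries per line). Both SEs came from 1 fit to the 16 libraries with a shared residual spread, so they are equal by construction. The difference of -0.0771 per hour had p = 0.0231 in a two-sided exact permutation test of line labels within times, which had 1296 relabellings and a smallest possible p of 0.00154. Replicate 2 of CNOT4-AID cells at 12 h had the lowest ratio, and without it the difference was -0.0429 per hour (exact permutation p = 0.0648). The call was also lost without replicate 1 (exact permutation p = 0.12) or replicate 2 (exact permutation p = 0.0664) of parental cells at 12 h, with differences of -0.0757 and -0.0907 per hour.

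**Figure D1:**
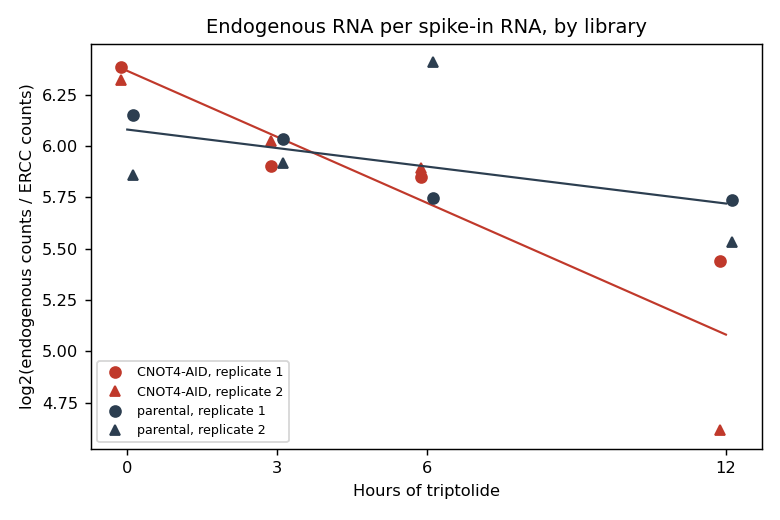
Log2 of summed endogenous counts over summed ERCC counts (vertical axis) against hours of triptolide (horizontal axis), with 1 point per library and least-squares lines for CNOT4-AID and parental cells. The CNOT4-AID points fall to 5.44 and 4.61 at 12 h, and replicate 2 of parental cells at 6 h, at 6.41, is the highest parental point.

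Nearly every gene followed this shift when library sizes were scaled to the spike-in. A median protein-coding mRNA with a mean of at least 5 CPM (9827 genes) stood in CNOT4-AID cells at 69.4% and 76.3% of its 0 h level after 3 h, 63.9% and 65.6% after 6 h, and 41.1% and 23.7% after 12 h. In parental cells it stood at 101.1% and 93.9% after 3 h, 77.9% and 120.2% after 6 h, and 67.4% and 55.8% after 12 h. CNOT4-AID libraries were therefore below both parental libraries at each of the 3 later times.

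Slopes were fitted per gene with edgeR's quasi-likelihood test. A negative slope difference means faster loss in CNOT4-AID cells where the RNA declined in both lines. Where it rose, a negative difference means a smaller rise, or a fall in place of a rise. Of 9827 protein-coding genes with a mean of at least 5 CPM, 932 rose in parental cells with ERCC scaling and 5322 with TMM scaling. Genes called with a negative difference are written as lost faster in either case. At a Benjamini-Hochberg adjusted p below 0.05, 142 of 16806 genes (0.845%) were lost faster in CNOT4-AID cells and 0 were lost slower. At an unadjusted p below 0.05, 7414 genes (44.1%) were lost faster and 30 (0.179%) slower. DESeq2 with the same ERCC scaling called 3010 faster and 2 slower. The median slope difference was -0.0754 log2 units per hour (quartiles -0.0959 and -0.0601), and 94.5% of genes were below 0. Over 12 h that median amounts to a shift of -0.905 log2 units common to most genes. The median slope was -0.148 per hour in CNOT4-AID cells and -0.0727 per hour in parental cells.

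As a group, the 142 genes had short half-lives in both lines, from the same slopes that entered the calls. Their median half-life was 3.09 h in CNOT4-AID cells and 5.75 h in parental cells, against 6.75 h in CNOT4-AID cells and 13.8 h in parental cells over all genes tested, counting genes that did not decline as longest-lived. Among protein-coding genes with a mean of at least 5 CPM, 8893 of 9827 declined in both lines, with a median half-life of 6.81 h in CNOT4-AID cells (quartiles 4.49 and 9.73 h) and 13.9 h in parental cells (quartiles 7.31 and 29.3 h). Half-lives above 12 h, the last time sampled, are extrapolated, and they made up 12.1% of these genes in CNOT4-AID cells and 56.0% in parental cells. With TMM scaling 4286 of the 9827 genes declined in both lines. Their median half-life was 11.9 h in CNOT4-AID cells and 14.4 h in parental cells, so the size of the gap depends on the scaling.

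The number of genes past the threshold rested on single libraries. Without replicate 2 of CNOT4-AID cells at 12 h, 0 genes were called and the median slope difference was -0.0466 per hour, with 2050 genes faster at an unadjusted p below 0.05. Without replicate 1 at the same time, 9803 genes were called faster and 10 slower. Without replicate 1 of parental cells at 0 h the count was 1237, and without replicate 2 of parental cells at 6 h it was 1694. The direction of the median was the same each time a library was left out. Under ERCC scaling the median slope difference was -0.0463 per hour in the libraries numbered 1 and -0.119 per hour in those numbered 2.

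**Figure D2:**
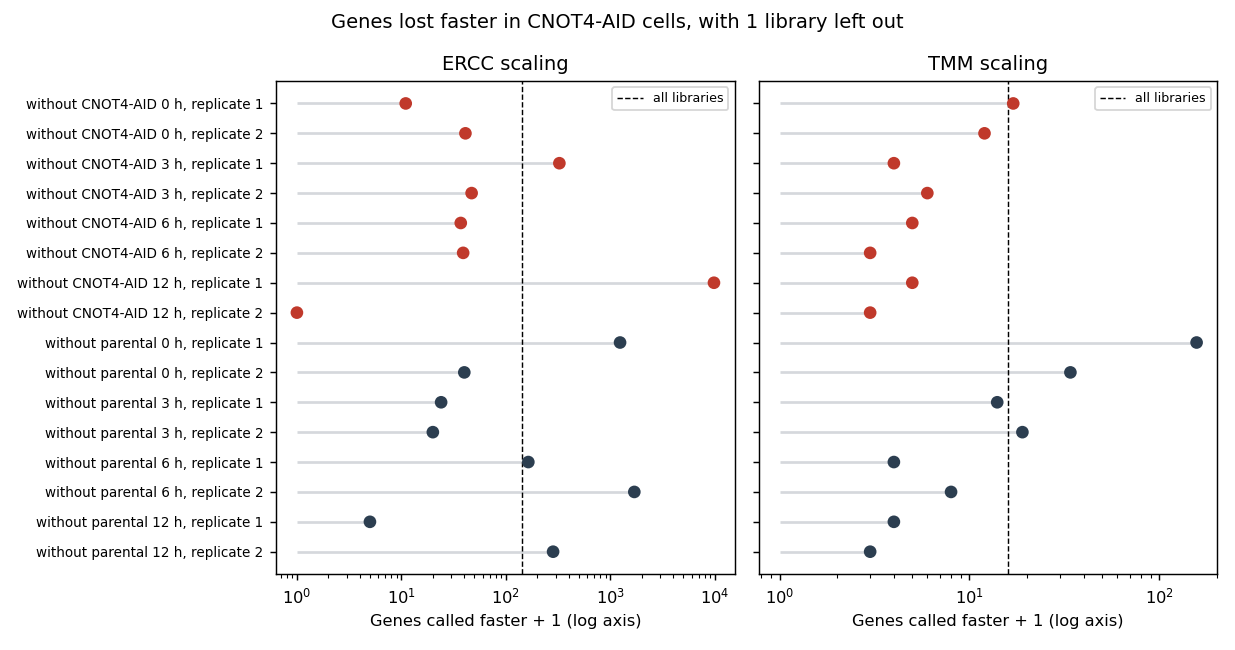
Number of genes lost faster in CNOT4-AID cells at an adjusted p below 0.05 when each of the 16 libraries was left out in turn, with ERCC scaling and with TMM scaling. The ERCC-scaled count runs between 0 and 9803, both reached by leaving out a CNOT4-AID library at 12 h, and the TMM-scaled count runs between 2 and 156.

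Scaling to the endogenous RNA removes the common shift and asks which mRNAs were lost faster than the rest. With TMM scaling 15 of 16806 genes (0.0893%) were lost faster in CNOT4-AID cells and 1 (0.00595%) slower, at an adjusted p below 0.05. The median slope difference was then -0.00405 per hour, and 830 genes (4.94%) were faster and 197 (1.17%) slower at an unadjusted p below 0.05. Scaling to mRNAs of cytosolic ribosomal proteins gave 20 genes lost faster (0.119%) and 1 slower (0.00595%), with a median of -0.00989 per hour. Of the 15 genes under TMM scaling, 12 (80.0%) were also called with ERCC scaling, which is 8.45% of the 142, and 10 were among the 20 under ribosomal protein scaling.

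**Figure D3:**
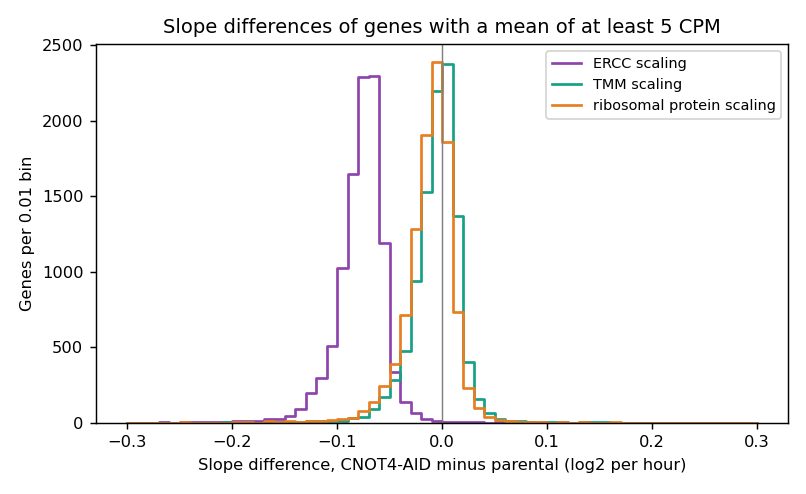
Number of genes (vertical axis) by slope difference, CNOT4-AID minus parental, in log2 units per hour (horizontal axis), for genes with a mean of at least 5 CPM, with ERCC, TMM and ribosomal protein scaling. Over the 10307 genes of that kind the median is -0.0744 per hour with ERCC scaling and -0.00308 per hour with TMM scaling.

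ZNF318 and SART3 were the genes that stayed past the threshold with TMM scaling whichever of the 16 libraries was left out. ZNF318, a zinc finger protein gene on chromosome 6 (GRCh38, 43307134 to 43369478, minus strand), had ERCC-scaled levels in CNOT4-AID cells of 54.5 and 54.1 CPM at 0 h, 20.7 and 24.3 CPM at 3 h, 13.2 and 12.5 CPM at 6 h, and 3.63 and 2.04 CPM at 12 h. In parental cells it had 39.8 and 40.3 CPM at 0 h, 30.8 and 28.9 CPM at 3 h, 16.9 and 30.2 CPM at 6 h, and 9.27 and 8.01 CPM at 12 h. With this scaling CNOT4-AID cells held more ZNF318 RNA than parental cells at 0 h and less at every later time, with no overlap between the lines. The median gene with a mean of at least 5 CPM was likewise 0.335 log2 units higher in CNOT4-AID cells at 0 h and 0.640 log2 units lower at 12 h. With TMM scaling ZNF318 had 36.2 and 37.5 CPM in CNOT4-AID cells and 30.4 and 35.9 CPM in parental cells at 0 h. The half-life of ZNF318 was 2.86 h in CNOT4-AID cells and 5.43 h in parental cells with ERCC scaling. The ERCC-scaled slope difference was -0.166 ± 0.0331 per hour (SE, adjusted p = 0.0153), and the TMM-scaled one was -0.0932 ± 0.0111 per hour (adjusted p = 0.000329). Without 1 library at a time the TMM-scaled value ran between -0.0981 and -0.0863 per hour.

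SART3 recycles the U4/U6 small nuclear ribonucleoprotein during splicing, and its gene lies on chromosome 12 (108522580 to 108561400, minus strand). Its ERCC-scaled level in CNOT4-AID cells was 126 and 124 CPM at 0 h, 50.8 and 56.7 CPM at 3 h, 30.4 and 29.4 CPM at 6 h, and 8.48 and 5.19 CPM at 12 h. In parental cells it was 110 and 85.1 CPM at 0 h, 68.7 and 60.5 CPM at 3 h, 38.3 and 59.9 CPM at 6 h, and 18.7 and 17.3 CPM at 12 h. With ERCC scaling the order of the lines was reversed between 0 h and the later times, as for the median gene, and their libraries did not overlap at any time. With TMM scaling SART3 had 83.6 and 86.2 CPM in CNOT4-AID cells and 83.6 and 75.7 CPM in parental cells at 0 h, so the lines met there. The slope difference of SART3 was -0.144 ± 0.0307 per hour with ERCC scaling (SE, adjusted p = 0.0220) and -0.0723 ± 0.00921 per hour with TMM scaling (adjusted p = 0.000539).

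MRFAP1L1, a short gene on chromosome 4 (6707701 to 6709880, minus strand), had the most negative slope difference of the genes called under both scalings. Its ERCC-scaled level in CNOT4-AID cells was 41.0 and 33.1 CPM at 0 h, 11.9 and 13.0 CPM at 3 h, 4.00 and 3.48 CPM at 6 h, and 0.886 and 0.331 CPM at 12 h. In parental cells it was 25.9 and 21.1 CPM at 0 h, 15.8 and 11.2 CPM at 3 h, 5.03 and 8.27 CPM at 6 h, and 2.08 and 1.52 CPM at 12 h. At 12 h 1.64% of the 0 h level was left in CNOT4-AID cells and 7.65% in parental cells, and the lines overlapped only at 3 h. The last values rest on 30 and 18 counts in CNOT4-AID cells and on 50 and 44 counts in parental cells. MRFAP1L1 changed by -0.193 ± 0.0382 per hour with ERCC scaling (adjusted p = 0.0153) and by -0.125 ± 0.0236 per hour with TMM scaling (adjusted p = 0.0299), and the TMM-scaled call was kept in 6 of 16 fits that left out 1 library.

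TP53BP1 organises the repair of DNA double-strand breaks. Its TMM-scaled level in CNOT4-AID cells was 66.9 and 75.9 CPM at 0 h, 64.4 and 63.6 CPM at 3 h, 52.6 and 44.7 CPM at 6 h, and 27.6 and 26.1 CPM at 12 h. In parental cells it was 60.9 and 75 CPM at 0 h, 75.2 and 75.8 CPM at 3 h, 66.6 and 72.0 CPM at 6 h, and 49.4 and 50.5 CPM at 12 h. The lines overlapped at 0 h, and from 3 h on both CNOT4-AID libraries lay below both parental libraries. The TMM-scaled slope difference of TP53BP1 was -0.0792 ± 0.0148 per hour (adjusted p = 0.0289, kept in 5 of 16 fits without 1 library).

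SMIM3, which encodes a small membrane protein, showed its difference late. With TMM scaling it had 30.6 and 38.4 CPM at 0 h, 24.0 and 21.6 CPM at 3 h, 14.1 and 13.4 CPM at 6 h, and 5.18 and 4.63 CPM at 12 h in CNOT4-AID cells. In parental cells SMIM3 had 24.9 and 27.1 CPM at 0 h, 17.4 and 19.1 CPM at 3 h, 11.9 and 12.0 CPM at 6 h, and 7.5 and 7.23 CPM at 12 h. CNOT4-AID cells were higher at the first 3 times and lower at 12 h. The TMM-scaled slope difference of SMIM3 was -0.0822 ± 0.0153 per hour with all times (adjusted p = 0.0289) and -0.0203 per hour without 12 h.

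The other 10 genes lost faster with TMM scaling had slope differences between -0.0976 and -0.0401 per hour. ESPL1 encodes separase, the protease that releases sister chromatids, and differed by -0.0658 ± 0.0109 per hour (adjusted p = 0.0170, kept in 11 of 16 fits). RCC1, the nucleotide exchange factor of Ran, differed by -0.0620 per hour and EFL1, a GTPase that matures the large ribosomal subunit, by -0.0571 per hour. BAZ1B, a chromatin remodelling factor, and PHC2, a Polycomb subunit, differed by -0.0484 and -0.0470 per hour. The remaining members were the long non-coding RNA AL355338.1, TXNDC11, DNAJC14, FKBP15 and GPAT4, an acyltransferase of glycerolipid synthesis. The gene lost slower was the processed pseudogene EEF1A1P12, at 0.143 per hour, and reads of the near-identical EEF1A1 copies make it uncertain. The names of this paragraph beyond ESPL1 fall outside the rule by which genes were chosen and were picked after their values were seen.

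**Figure D4:**
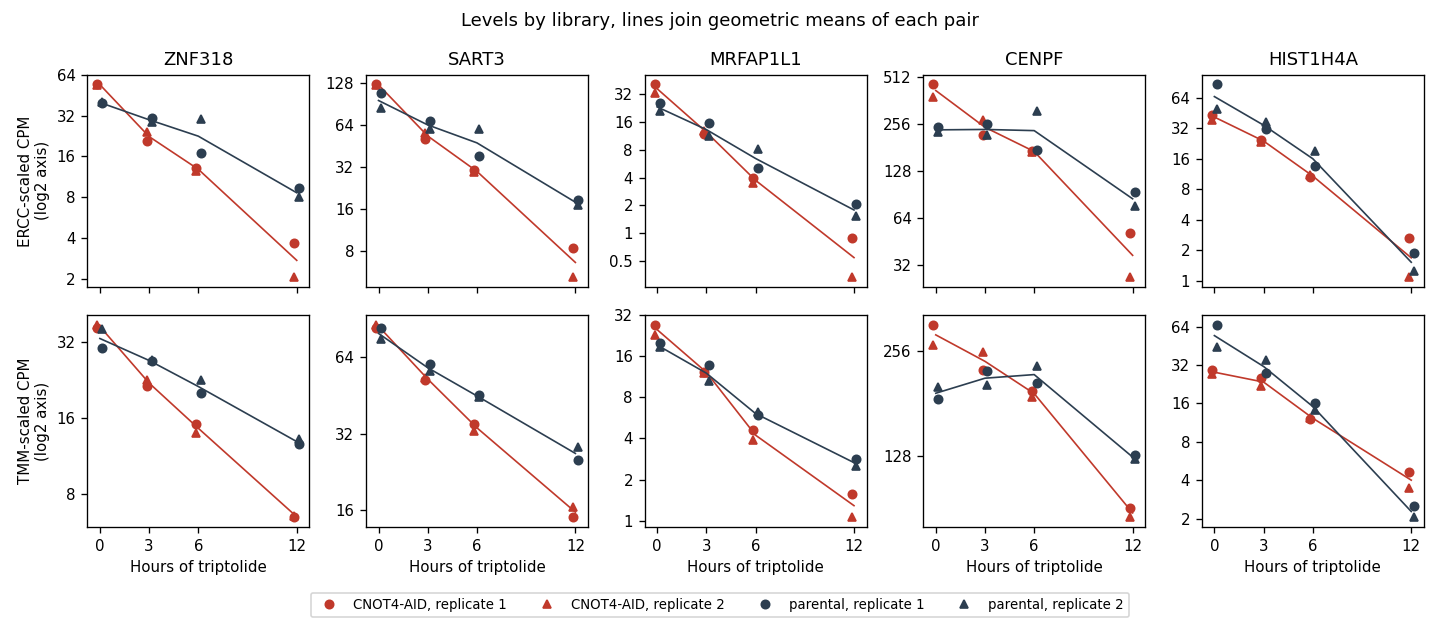
Levels of ZNF318, SART3, MRFAP1L1, CENPF and HIST1H4A in CPM on a log2 axis against hours of triptolide, with 1 point per library and lines through group means, ERCC-scaled in the upper row and TMM-scaled in the lower row. ZNF318 and SART3 start higher in CNOT4-AID cells and end lower in the upper row, and HIST1H4A starts lower in CNOT4-AID cells and ends higher in the lower row.

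The named genes of the ERCC-scaled calls outside the zinc finger genes included several short-lived mRNAs. NOP16, a nucleolar protein of large-subunit assembly, had 33.1 and 29.4 CPM at 0 h and 0.502 and 0.258 CPM at 12 h in CNOT4-AID cells. In parental cells NOP16 had 34.8 and 21.0 CPM at 0 h and 1.41 and 2.01 CPM at 12 h. The lines overlapped at 0 h and were apart at 12 h, where CNOT4-AID cells held 17 and 14 counts and parental cells 34 and 58 counts. The slope difference of NOP16 was -0.208 ± 0.0406 per hour (adjusted p = 0.0153), and with TMM scaling it was -0.135 per hour (adjusted p = 0.0983).

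ABT1, the counterpart of a yeast ribosome assembly factor, fell to 0.975 and 0.680 CPM at 12 h in CNOT4-AID cells, against 2.87 and 3.26 CPM in parental cells, with 45.5 and 43.1 CPM in CNOT4-AID cells and 41.7 and 34.8 CPM in parental cells at 0 h. Its slope difference was -0.182 ± 0.0351 per hour (adjusted p = 0.0153). NR1H2, the nuclear receptor LXR-beta, differed by -0.185 per hour (adjusted p = 0.0153) and TRIM68, an E3 ubiquitin ligase, by -0.168 per hour (adjusted p = 0.0367). None of NOP16, ABT1, NR1H2 and TRIM68 passed the threshold for the TMM-scaled slope, and ABT1 passed it for 12 h minus 0 h with TMM scaling (-1.19 log2 units, adjusted p = 0.0289). Without 1 library of 0 or 12 h at a time, that ABT1 value ran between -1.337 and -0.8825 log2 units, and the call was not kept in every such fit. RNVU1-7, a U1 small nuclear RNA gene at -0.242 per hour, and NCBP2-AS2, at -0.209 per hour, were also past the threshold with ERCC scaling. Both are uncertain, since RNVU1-7 has near-identical copies and NCBP2-AS2 overlaps NCBP2. The strand setting of the counting is not given in the sources used here. With ERCC scaling RNVU1-7 rose in parental cells (slope 0.177 per hour) and fell in CNOT4-AID cells (-0.0654 per hour). With TMM scaling RNVU1-7 rose in both lines, at 0.0748 per hour in CNOT4-AID cells and 0.247 per hour in parental cells. Its call is therefore not read as a faster loss.

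Zinc finger genes, many of which encode transcriptional repressors, were common among the ERCC-scaled calls. Of 484 genes tested whose symbol starts with ZNF, ZSCAN, ZBTB or ZKSCAN, 20 were lost faster (4.13%, against 0.845% of all genes), and they were 14.1% of the 142. Their median slope difference was -0.0938 per hour with ERCC scaling and -0.0217 per hour with TMM scaling, where 1 of them, ZNF318, passed the threshold and 365 of 484 were below 0, against 56.5% of all genes. For the other 16322 genes the medians were -0.0750 and -0.00360 per hour. The median slope of the 484 genes was -0.290 per hour in CNOT4-AID cells and -0.195 per hour in parental cells. Of the 9827 protein-coding genes described above, the least stable 1966 had parental slopes between -0.816 and -0.148 per hour. Their median slope differences were close to the family's, at -0.0889 per hour with ERCC scaling and -0.0175 per hour with TMM scaling. The parental slope enters the difference itself. Whether the family differed from other mRNAs of like stability was not tested.

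Of the 20 zinc finger genes lost faster, 7 lie on chromosome 19, and 6 of these 7 were lower in both CNOT4-AID libraries than in both parental libraries already at 0 h with TMM scaling. Of all genes tested, 2269 (13.5%) were lower at 0 h in this way and 3468 (20.6%) higher. Of the 484 zinc finger genes tested, 162 (33.5%) were lower and 73 (15.1%) higher, so a low 0 h level was common in the family. ZNF607 had 8.04 and 6.04 CPM in CNOT4-AID cells and 69.0 and 66.6 CPM in parental cells at 0 h, ERCC-scaled. At 12 h it had 0.0887 and 0.0552 CPM in CNOT4-AID cells, from 3 counts in each library, and 3.41 and 3.26 CPM in parental cells, from 82 and 94 counts. The lines were far apart before triptolide, and the slope of ZNF607 in CNOT4-AID cells rests on a few counts at its end.

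ZNF708 had 6.18 and 4.87 CPM in CNOT4-AID cells and 24.3 and 34.8 CPM in parental cells at 0 h. ZNF585B had 4.39 and 3.77 CPM in CNOT4-AID cells against 16.3 and 21.6 CPM in parental cells at 0 h. ZNF274, which recruits a histone methyltransferase to zinc finger gene clusters, had 23.8 and 21.3 CPM in CNOT4-AID cells against 54.1 and 44.3 CPM in parental cells at 0 h. All of these were lower in both CNOT4-AID libraries, as was ZNF266, with 17.9 and 16.1 CPM in CNOT4-AID cells against 39.1 and 40.6 CPM in parental cells. Their ERCC-scaled slope differences were -0.220 for ZNF708, -0.172 for ZNF585B, -0.197 for ZNF274 and -0.187 per hour for ZNF266 (adjusted p between 0.0153 and 0.0370), and -0.206 per hour for ZNF607 (adjusted p = 0.0490). None of the 5 passed for the TMM-scaled slope, with adjusted p between 0.148 and 0.683.

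Genes of mitosis had a more negative median than all genes tested. Of 55 tested, 4 were called faster with ERCC scaling (CENPF, ESPL1, CENPA and AURKA), against 0.845% of all genes, 0 were called slower, and the median slope difference was -0.0847 per hour, against -0.0754 for all genes. With TMM scaling the median was -0.0164 per hour, 43 of 55 were below 0, against 56.5% of all genes, and for the slope ESPL1 alone passed the threshold. CENPF, a kinetochore protein, had TMM-scaled levels of 305 and 266 CPM at 0 h and 90.4 and 85.1 CPM at 12 h in CNOT4-AID cells, against 186 and 202 CPM at 0 h and 128 and 125 CPM at 12 h in parental cells. CNOT4-AID cells were higher at 0 h and lower at 12 h without overlap.

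CENPA, the centromeric histone H3 variant, had 20.5 and 17.7 CPM at 0 h and 5.18 and 5.04 CPM at 12 h in CNOT4-AID cells with TMM scaling, against 19 and 19.8 CPM at 0 h and 8.74 and 9 CPM at 12 h in parental cells. AURKA, the mitotic kinase Aurora A, had 80.0 and 83.2 CPM at 0 h and 11.1 and 11.3 CPM at 12 h in CNOT4-AID cells, and 70.7 and 84.2 CPM at 0 h and 14.6 and 19.9 CPM at 12 h in parental cells. Both overlapped between the lines at 0 h and not at 12 h. The ERCC-scaled slope differences were -0.160 for CENPF, -0.136 for ESPL1, -0.136 for CENPA and -0.129 per hour for AURKA, with adjusted p between 0.0367 and 0.0489.

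Other lists held 1 or 2 calls among the faster genes with ERCC scaling, where 0.845% of all genes were called. In the integrated stress and unfolded protein response 2 of 32 were called, TRIB3, a pseudokinase induced by ATF4, at -0.129 per hour, and HERPUD1, a protein of endoplasmic reticulum degradation, at -0.125 per hour. The list's median of -0.0754 per hour was that of all genes. CDC25A, the phosphatase that starts S phase, was 1 of 52 genes of G1/S and replication at -0.124 per hour. XPC, a DNA damage sensor, was 1 of 23 p53 targets at -0.124 per hour, and EIF1, which governs start codon selection, was 1 of 58 translation factors at -0.124 per hour. NOP16 was 1 of 72 genes of ribosome biogenesis. None of these 6 passed for the TMM-scaled slope, while for 12 h minus 0 h with TMM scaling EIF1 (-0.575 log2 units, adjusted p = 0.0278) and CDC25A (-0.661 log2 units, adjusted p = 0.0190) did. Without 1 library of 0 or 12 h at a time, the EIF1 value ran between -0.631 and -0.414 log2 units. The CDC25A value ran between -0.746 and -0.474 log2 units, and neither call was kept in every such fit.

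**Figure D5:**
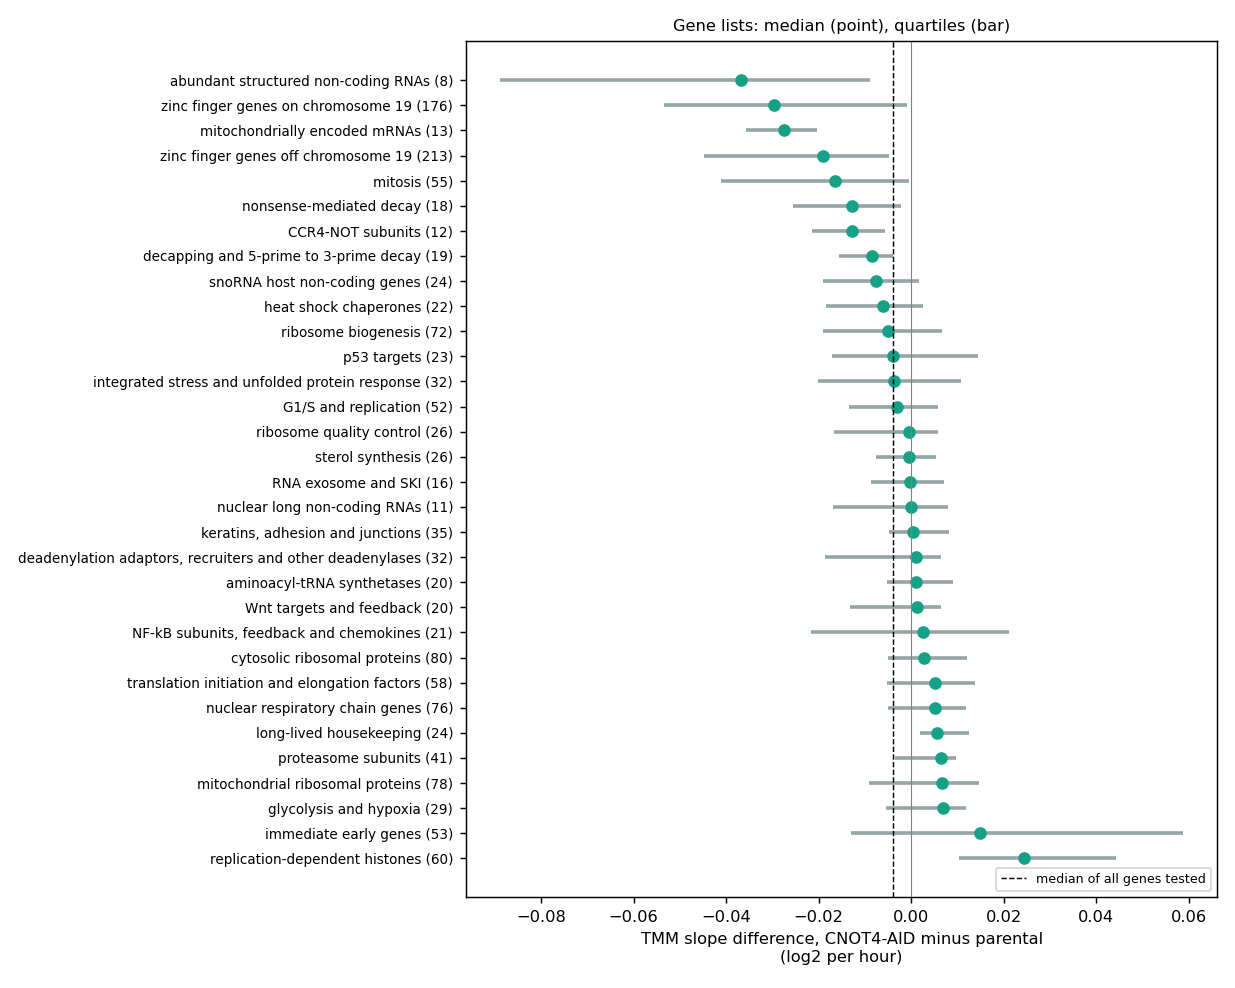
Median (point) and quartiles (bar) of the TMM-scaled slope difference, CNOT4-AID minus parental, in log2 units per hour, for the 32 gene lists with the number of genes tested in brackets, and the median of all genes tested as a dashed line. Abundant structured non-coding RNAs (8 tested, median -0.0369 per hour) lie furthest to the left and replication-dependent histones furthest to the right. Zinc finger genes, mitochondrially encoded mRNAs and mitosis genes are among the other lists to the left of the dashed line.

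Subunits of CCR4-NOT were not lost at rates that passed the threshold. All 12 were measured, and 0 were called in either direction under ERCC or TMM scaling. Among all genes 0.845% were called faster with ERCC scaling and 0.0893% with TMM scaling, so 0 calls in so small a list says little. The medians were -0.0846 per hour with ERCC scaling and -0.0128 per hour with TMM scaling, against -0.0754 and -0.00405 for all genes. Under TMM scaling 9 of 12 were below 0, against 56.5% of all genes. CNOT8, a catalytic deadenylase, had the most negative ERCC-scaled value at -0.116 ± 0.0349 per hour (adjusted p = 0.0590), and CNOT10, a subunit of the module that binds the amino-terminal part of CNOT1, the least negative at -0.0410 ± 0.0344 per hour (adjusted p = 0.309). CNOT1, the scaffold, was at -0.0923 ± 0.0323 per hour (adjusted p = 0.0764) and CNOT4 itself at -0.0809 ± 0.0335 per hour (adjusted p = 0.0897). The CNOT4 mRNA kept 46.9% of its 0 h level at 12 h in CNOT4-AID cells and 51.1% in parental cells with TMM scaling.

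None of 19 genes of decapping and 5-prime to 3-prime decay, 16 of the RNA exosome and SKI complex, 18 of nonsense-mediated decay, 26 of ribosome quality control and 32 of deadenylase adaptors and recruiters passed the threshold for the slope under ERCC or TMM scaling. Over all genes 0.845% were called faster with ERCC scaling and 0.0893% with TMM scaling, so few or no calls would be met in lists of this size. For 12 h minus 0 h with TMM scaling 0.422% of all genes fell further. Of the 32 adaptors and recruiters 1, TNRC6A, passed that threshold, at -0.53 log2 units (adjusted p = 0.0260), and is named for that reason. The ERCC-scaled medians of these lists were between -0.0838 and -0.0697 per hour. DDX6, the helicase that links CCR4-NOT to decapping, was at -0.0808 per hour (adjusted p = 0.0862) and PABPC1, the main cytoplasmic poly(A)-binding protein, at -0.0693 per hour (adjusted p = 0.101).

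Several lists, housekeeping functions among them, had positive medians with TMM scaling. The 80 cytosolic ribosomal protein mRNAs had a median TMM-scaled slope difference of 0.00280 per hour and 0 calls. After 12 h their median member stood at 83.5% and 48.0% of its 0 h level in CNOT4-AID cells with ERCC scaling, and at 122.5% and 108.7% in parental cells. With TMM scaling the same values were 217.7% and 224.5% in CNOT4-AID cells and 201.7% and 216.6% in parental cells. The CNOT4-AID libraries were thus below the parental libraries with ERCC scaling and slightly above them with TMM scaling. Nuclear respiratory chain genes (76) had a TMM median of 0.00522 per hour, proteasome subunits (41) 0.00646 per hour and immediate early genes (53) 0.0148 per hour. All had 0 calls under both scalings, where 0.845% of all genes were called faster with ERCC scaling and 0.0893% with TMM scaling.

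Replication-dependent histone mRNAs, which lack poly(A) tails and decay through a stem-loop, had the least negative median of the lists. Of 60 tested, 0 were called, where 0.845% of all genes were called faster with ERCC scaling and 0.0893% with TMM scaling. The median was -0.0453 per hour with ERCC scaling and 0.0244 per hour with TMM scaling. With TMM scaling 50 of 60 were above 0, against 7313 of all 16806 genes. At 12 h the median of 54 of them with a mean of at least 5 CPM stood at 5.18% and 3.03% of 0 h in CNOT4-AID cells and 5.33% and 5.45% in parental cells with ERCC scaling. The 13 mitochondrially encoded mRNAs, which are made by a polymerase that triptolide does not target, all had TMM-scaled slope differences below 0, as did 56.5% of all genes, with a median of -0.0276 per hour and 0 calls. With TMM scaling their median member reached 253.0% and 226.9% of 0 h at 12 h in CNOT4-AID cells, and 304.1% and 288.8% in parental cells.

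Small nucleolar and small nuclear RNA genes had the most negative medians of the gene types examined. Of 111 small nucleolar RNA genes 4 were called faster with ERCC scaling and 0 with TMM scaling, where the median was -0.102 per hour and 101 of 111 were below 0. Of all genes 0.845% were called faster with ERCC scaling and 56.5% were below 0 with TMM scaling. The median ERCC-scaled slope of small nucleolar RNA genes was 0.0860 per hour in parental cells and -0.0793 per hour in CNOT4-AID cells. The typical such gene thus rose in parental cells, so its difference is not a comparison of losses. Of 57 small nuclear RNA genes 2 were called faster with ERCC scaling, with a TMM-scaled median of -0.0881 per hour. Other structured RNAs, in the misc_RNA type (37 genes), had 0 calls. Their median was -0.0877 per hour with ERCC scaling and -0.0163 per hour with TMM scaling. Many small nucleolar RNAs lie within introns of other genes, and such overlapping or repeated genes are uncertain in these counts. Among longer non-coding RNAs 3 of 727 lincRNA genes and 3 of 809 antisense genes were called faster with ERCC scaling, against the same 0.845% of all genes.

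The change between 0 and 12 h, fitted with TMM scaling and time as a factor, separated more genes than the slope. In this comparison, added after the slopes had been seen, 71 genes (0.422%) fell further in CNOT4-AID cells and 6 (0.0357%) fell less, at an adjusted p below 0.05. Of the 71, 14 were among the 15 faster by slope with TMM scaling, which is 19.7% and 93.3% of these lists. TMEM131L, a transmembrane protein gene, fell to 10.5 and 11 CPM at 12 h in CNOT4-AID cells and to 19.7 and 20.3 CPM in parental cells, with 93.1 and 96.0 CPM in CNOT4-AID cells and 82.4 and 84.2 CPM in parental cells at 0 h. The lines did not overlap at either time, and their changes differed by -1.08 log2 units (adjusted p = 0.000400). The change of CENPF differed by -1.09 (adjusted p = 0.000783), that of ZNF318 by -1.14 (adjusted p = 0.000996) and that of MTF1, the metal-responsive transcription factor, by -0.953 log2 units (adjusted p = 0.0322). Without 1 library of 0 or 12 h at a time, the MTF1 value ran between -1.07 and -0.719 log2 units, and its call was not kept in every such fit.

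Several of these genes started from a higher level in CNOT4-AID cells. Of the 71 genes, 46 (64.8%) were higher at 0 h in both CNOT4-AID libraries than in both parental libraries with TMM scaling, and 4 were lower, against 20.6% and 13.5% of all genes. The 0 h libraries enter both the level and the change, so these shares are a description. Without replicate 1 or replicate 2 of parental cells at 0 h, 1769 and 1623 genes fell further and 607 and 875 fell less, while leaving out any other library of 0 or 12 h gave 5 to 55 and 1 to 10 genes.

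The genes that fell less by 12 h included HIST1H4A, 1 of several near-identical histone H4 genes and thus uncertain. With TMM scaling HIST1H4A had 29.2 and 27.1 CPM at 0 h and 4.66 and 3.46 CPM at 12 h in CNOT4-AID cells, against 66.4 and 44.6 CPM at 0 h and 2.54 and 2.05 CPM at 12 h in parental cells. Its level was lower in CNOT4-AID cells at 0 h and higher at 12 h, and the changes differed by 1.81 log2 units (adjusted p = 0.0190). NT5DC3 had 84.7 and 78.9 CPM at 0 h and 50.5 and 46.7 CPM at 12 h in CNOT4-AID cells, against 30.8 and 35.4 CPM at 0 h and 10.1 and 10.6 CPM at 12 h in parental cells. It was higher in CNOT4-AID cells at both times, with a difference between the changes of 0.928 log2 units (adjusted p = 0.00751). POLR3C, a subunit of RNA polymerase III, and MRPS16, a mitochondrial ribosomal protein, differed by 0.707 (adjusted p = 0.0297) and 0.447 log2 units (adjusted p = 0.0496).

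Transcript features moved little with the TMM-scaled slope difference across the 9827 protein-coding genes with a mean of at least 5 CPM. With genes split by coding length into 5 equal groups, the median was -0.00121 per hour in the shortest group and -0.00744 per hour in the longest, which held 9 of the genes lost faster with TMM scaling. Genes with no AUUUA motif after the stop codon (2893) had a median of -0.00326 per hour, and those with 5 or more (3054) had -0.000347 per hour. Split in the same way by the parental slope, the median was -0.0175 per hour for the least stable mRNAs and 0.00267 per hour for the most stable, but the parental slope enters the difference itself. The difference between the parental replicates at 0 h also moved with GC content, with a median log2 difference of -0.528 in the group of lowest transcript GC and 0.738 in the group of highest. Its part in these values was not tested.

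The steady-state libraries of the same lines, with and without auxin, gave few differences and none among the genes lost faster. The response to auxin in CNOT4-AID cells minus that in parental cells was fitted with limma on log2 of TPM, a length-corrected relative abundance, plus 0.5 for 14921 genes, with 2 libraries per group. At 8 h 1 gene was higher and 1 lower (0.0067% each), both of them misc_RNA genes listed at 0 in most libraries. At 24 h 6 were higher (0.0402%) and 4 lower (0.0268%). At an unadjusted p below 0.05 the counts were 1061 at 8 h and 2324 at 24 h.

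METTL5, which methylates 18S ribosomal RNA, had 64.3 and 65.0 TPM with auxin at 24 h in CNOT4-AID cells, 50.9 and 49.95 TPM with auxin in parental cells, 38.9 and 42.4 TPM without auxin in CNOT4-AID cells, and 55.7 and 51.6 TPM without auxin in parental cells. Its level with auxin was above that without auxin in CNOT4-AID cells and not in parental cells, and the responses differed by 0.620 log2 units (adjusted p = 0.0259). DHCR7, the last enzyme of cholesterol synthesis, had 55.2 and 52.1 TPM with auxin in CNOT4-AID cells and 68.1 and 63.2 TPM without, against 66.5 and 70.8 TPM with auxin and 63.4 and 65.1 TPM without in parental cells. Auxin libraries were the lower ones in CNOT4-AID cells and the higher ones in parental cells, and the responses differed by -0.517 log2 units (adjusted p = 0.0259). The DHCR7 call was not kept with ERCC scaling, with no scaling or in 6 of the 8 fits that left out 1 library of 24 h, where 0 genes were lower, and without replicate 2 of untreated CNOT4-AID or parental cells 23 and 14 genes were lower. In those settings with 0 lower genes, 1 or 2 were higher, against 6 in the main fit. Most of the higher calls were thus lost there too, and METTL5 may be among them. The other genes higher at 24 h were UTP23, PLRG1, SMIM19, NACA and MIR320B2, and the others lower were TM4SF1, S100A16 and LRP10. These were named because they passed the threshold. MIR320B2 had the smallest adjusted p at 24 h (1.18e-06 in limma). It had 5.47 and 5.35 TPM with auxin at 24 h in CNOT4-AID cells and 0 TPM in every other steady-state library of the 2 lines. METTL5, UTP23, PLRG1, DHCR7 and the other protein-coding genes of this list had no called slope difference.

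Of the 142 genes lost faster with ERCC scaling, 140 were measured at steady state and 0 were called. Their response difference was below 0 for 73 (52.1%) at 8 h and 81 (57.9%) at 24 h, against 50.5% of all genes at both times. Of the 15 genes lost faster with TMM scaling, 10 were below 0 at 8 h and 10 at 24 h, with medians of -0.0638 and -0.0406 log2 units. The steady-state fit was TMM-scaled, which removes a shift common to most genes. The shares for the 142 genes therefore cannot show whether such a shift was present at steady state. With ERCC scaling the median steady-state response difference was -0.0626 log2 units at 8 h and 0.218 log2 units at 24 h.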

How the data were processed

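RNA-seq of ribosome-depleted total RNA with ERCC spike-in was analysed, with 16 triptolide libraries compared and 24 in the fit. The deposited triptolide values are raw counts per gene, per the labels and the whole-number values. The deposited steady-state values sum to the same total in each column and were treated as TPM made by the authors. Tools listed in the submitters' processing notes, without roles, are featureCounts, SAMtools, RSEM, STAR 2.5.1b and DESeq2, and the build is hg38 (GRCh38). All 58721 gene IDs matched GENCODE 29. Its symbols and positions were used, and 0 columns had no sample.

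Counts were fitted with edgeR 4.0.16 in R 4.3.3 (robust quasi-likelihood, filterByExpr, 16806 genes, 18 residual degrees of freedom), with an intercept and a slope over hours for each line. The CNOT1-AID libraries entered only to share the estimate of spread. Library sizes were scaled to 56 of 92 ERCC sequences with a mean of at least 10 counts. TMM, ribosomal protein and other scalings, DESeq2 1.42.0, other filters, time as a factor, the replicate number as a block and leaving out each library were tried. P-values were adjusted by Benjamini-Hochberg over all genes tested, with a threshold of 0.05. Half-lives came from ERCC-scaled slopes unless TMM scaling is named. The summed ratio was tested by exact permutation. Because the steady-state table held TPM in place of the counts the design had assumed, limma 3.58.1 was used on log2 of TMM-scaled TPM plus 0.5, for genes with at least 1 TPM in 2 libraries. TPM hold no depth, which is unknown for that set. The fit was run on simulated counts in which the ERCC library sizes were taken as true, so that check does not cover error in the spike-in scaling.

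Named genes were those past the threshold with a mean of at least 5 CPM and the same sign in each replicate, the 12 largest with ERCC scaling, the 5 largest with TMM scaling, CCR4-NOT subunits and up to 4 members per list, or the 2 most abundant members of a list where none qualified. Clone names, ERCC names, names of most small RNAs and pseudogenes were passed over. The gene lists and the libraries compared were chosen with earlier results of these data known. The numbers of the replicates did not pair libraries: over 28 pairs of groups the correlation of same-numbered deviations was -0.546 to 0.215.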

Additional observations from a re-analysis of the deposited data

Results flagged for a closer look

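The results below are listed because the effect of triptolide differed between the lines by a test of the difference itself. The summed endogenous to ERCC ratio had a slope difference of -0.0771 log2 units per hour, CNOT4-AID minus parental (exact permutation p = 0.0231). With TMM scaling the slope difference was -0.125 per hour for MRFAP1L1, -0.0932 for ZNF318, -0.0822 for SMIM3, -0.0792 for TP53BP1, -0.0723 for SART3 and -0.0658 per hour for ESPL1, all past an adjusted p of 0.05 in edgeR's quasi-likelihood test.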

How the results depend on the processing

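With ERCC scaling the direction of the median slope difference was the same under the other filters, fits and times tried, and the count of genes past the threshold was not stable. Genes lost faster numbered 15 with TMM scaling, 20 with ribosomal protein scaling, 7 with median-of-ratios scaling and 11 with library totals, each with 1 slower. With ERCC scaling there were 587 faster and 7 slower with no count filter, 2309 and 1 with a mean of at least 5 CPM, 19 and 0 with only the 16 libraries of both lines, 50 and 0 without robust estimation, 65 and 1 without 0 h, 0 and 0 without 12 h (3344 faster at an unadjusted p below 0.05), and 142 and 0 with ERCC sequences of at least 100 counts. With time as a factor they were 6 and 1 at 3 h, 31 and 6 at 6 h and 1377 and 5 at 12 h. DESeq2 called 3010 and 2 with ERCC scaling and 60 and 10 with median-of-ratios scaling. With TMM scaling there were 0 and 0 at 3 h, 6 and 1 at 6 h, 71 and 6 at 12 h, 96 and 4 without 0 h, and 0 and 0 without 12 h (434 faster and 314 slower at an unadjusted p below 0.05). Leaving out 1 library at a time gave 0 to 9803 faster and 0 to 10 slower with ERCC scaling, 2 to 156 and 0 to 22 with TMM scaling, and 5 to 1769 and 1 to 875 for 12 h minus 0 h with TMM scaling. The median then ran from -0.106 to -0.0466 per hour with ERCC scaling. The cause of these differences was not tested.

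The median slope difference was -0.00405 per hour with TMM scaling, -0.00989 with ribosomal protein scaling, -0.000229 with median-of-ratios scaling, -0.00232 with library totals, and -7.58e-05 in DESeq2 with median-of-ratios scaling. It was -0.146 for 3 h minus 0 h with ERCC scaling. With TMM scaling it was -0.0141, -0.0105 and -0.00414 for 3, 6 and 12 h minus 0 h, -0.00170 without 0 h, and 0.00238 without 12 h. The slope difference of endogenous counts per ERCC count was -0.0664 without 0 h (exact permutation p = 0.352), -0.0925 without 12 h (exact permutation p = 0.167), and -0.103 to -0.0429 without 1 library. The replicate numbers did not pair the libraries. With the replicate number as a block, 28 genes were faster with ERCC scaling and 0 slower, 14 and 1 with TMM scaling, with a TMM-scaled median of -0.00424, and the ratio's difference of -0.0771 had p = 0.0633 by exact permutation.

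With TMM scaling and 12 h minus 0 h, MRPS16 and POLR3C had positive differences of 0.0373 and 0.0589 per hour, against negative ERCC-scaled slope differences. The slope difference of MRPS16 was -0.0360 per hour with ERCC scaling and 0.0359 per hour with TMM scaling. The medians of all genes were -0.0754 and -0.00405 per hour, since TMM scaling removes the common shift. The cause was not tested.

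Steady-state calls at 8 h were 0 higher with a pseudocount of 0.1, 12 higher and 10 lower with no filter, 0 higher and 0 lower with a mean of at least 5 TPM, and 1 to 8 higher and 1 to 2 lower without 1 library. At 24 h they were 1 higher and 0 lower with ERCC scaling, 2 and 0 with no scaling, 7 lower with no filter, 11 lower with a mean of at least 5 TPM, 1 lower with the replicate block, and 1 to 23 higher and 0 to 23 lower without 1 library. Depth limits the least abundant genes at 12 h, where some slopes rest on fewer than 20 counts.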
